A study of Mus musculus with 6 samples.

Results

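RNA levels of 9 genes that switch the small GTPase Ras on and off, or that answer its downstream kinase ERK, were followed in bone marrow (BM) of mice with T-cell acute lymphoblastic leukemia (T-ALL). The genes were chosen by name for their roles and are 9 of the 54532 genes in the table. They are Rasgrp1, Rasgrp2, Rasal3, Nras, Dusp4, Dusp5, Dusp6, Spry1 and Spry2. All 6 libraries came from male C57BL/6 mice at day 100 after transplantation, and all donor cells carried JAK3 M511I, an activating form of a Janus kinase delivered with GFP by an MSCV retrovirus into lineage-negative BM cells. According to the labels, 3 libraries were Phf6 wild-type (WT) and 3 were Phf6 knockout (KO). The conditional allele has exons 4 to 5 of the X-linked chromatin gene Phf6 flanked by loxP sites. By the study's description, WT cells (Phf6 fl/y) carry this allele too, without Cre. The study describes the sequenced knockout cells as carrying Vav1-Cre, which is active throughout blood cells, and the labels name no Cre. By that description the presence of Cre differs between the groups along with Phf6. Donors and recipients were 8 weeks old, and recipients were irradiated and could keep blood cells of their own. Whether the RNA came from sorted GFP+ cells is not given in the sources used here.

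Ras is active while bound to GTP. Guanine nucleotide exchange factors load it with GTP and GTPase-activating proteins (GAPs) make it hydrolyse GTP, and active Ras starts the RAF, MEK and ERK kinase cascade. ERK activity raises transcription of its own inhibitors, among them dual-specificity phosphatases (Dusp genes), which remove phosphate from ERK, and Sprouty proteins, which act upstream on Ras and RAF. In T cells the exchange factor Rasgrp1 couples the T-cell receptor to Ras, and the strength of this pathway guides thymocyte development. Among the 9 genes only Rasgrp1 and Rasgrp2 are exchange factors, and Rasgrp2 acts mainly on the Ras relative Rap1. Nras is the GTPase itself, Rasal3 is a GAP, and the Dusp and Spry genes are feedback inhibitors.

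RefSeq promoter windows of GRCm38.p6 matched 8 of the 9 genes, in 10 windows; Dusp4 was not matched. Bases -250 to -51 before the start are printed here for 5 genes, 5′ to 3′ along the gene: the 3 in which a searched motif was found, in capitals, and Spry1 and Spry2, whose levels moved in opposite directions. The printed stretches are chr19:53528895-53529094 on the plus strand for Dusp5, chr2:117342928-117343127 on the minus strand for Rasgrp1, chr17:32403633-32403832 on the minus strand for Rasal3, chr3:37639697-37639896 on the plus strand for Spry1 and chr14:105896870-105897069 on the minus strand for Spry2. Motifs were searched and counted over the whole windows, which run on from the printed bases to beyond the start.
Dusp5: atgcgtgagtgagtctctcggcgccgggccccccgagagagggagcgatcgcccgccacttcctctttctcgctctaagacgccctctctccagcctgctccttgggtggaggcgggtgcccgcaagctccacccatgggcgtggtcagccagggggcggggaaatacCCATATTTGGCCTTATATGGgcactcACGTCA
Rasgrp1: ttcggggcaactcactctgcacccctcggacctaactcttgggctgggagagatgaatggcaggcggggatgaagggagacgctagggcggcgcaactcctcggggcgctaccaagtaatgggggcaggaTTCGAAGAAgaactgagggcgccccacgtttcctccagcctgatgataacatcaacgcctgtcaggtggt
Rasal3: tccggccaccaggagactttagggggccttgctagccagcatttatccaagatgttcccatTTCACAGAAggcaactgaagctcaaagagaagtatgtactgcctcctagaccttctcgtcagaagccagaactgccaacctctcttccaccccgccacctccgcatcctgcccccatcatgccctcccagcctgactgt
Spry1: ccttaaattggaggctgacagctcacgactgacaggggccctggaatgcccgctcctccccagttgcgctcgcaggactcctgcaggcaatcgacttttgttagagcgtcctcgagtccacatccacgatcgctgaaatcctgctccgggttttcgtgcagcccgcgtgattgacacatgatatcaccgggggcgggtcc
Spry2: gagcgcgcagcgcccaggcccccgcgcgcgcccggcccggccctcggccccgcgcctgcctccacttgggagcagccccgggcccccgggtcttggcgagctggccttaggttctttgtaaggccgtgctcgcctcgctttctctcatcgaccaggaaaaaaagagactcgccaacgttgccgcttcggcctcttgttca
The capitals in Dusp5 mark 2 adjoining CArG boxes, the element bound by serum response factor, at -82 to -73 and at -72 to -63, and the letters TGACGT read on the other strand at -56 to -51, which are the start of a cAMP response element. A CArG box occurred in 1.63% of 32851 promoter windows and TGACGT in 7.51%. The capitals in Rasgrp1 (-120 to -112) and Rasal3 (-189 to -181) mark the STAT-type letters TTCNNNGAA, which occurred in 8.30% of windows. The other letters searched on both strands were found in none of the 10 windows of the 8 matched genes. They were CCGGAAGT of ETS factors (3.89% of windows), TGANTCA of AP-1 (7.81%), the full cAMP response element TGACGTCA (1.79%), which contains TGACGT, and GCGTGGGCG of EGR factors (0.612%). These matches describe letters in the window and no binding was measured.

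The libraries are named by label and replicate, from WT 1 to KO 3. They held between 13015823 and 18235095 recovered reads, and no 2 were alike within sampling noise. Library WT 2 stood apart: genes shorter than 1000 bases took 17.1% of its reads against 3.11% to 5.01% elsewhere, and genes of at least 8000 bases took 6.74% against 22.9% to 26.5%. FPKM of the targeted gene, Phf6, was 7.47, 3.67 and 8.02 in WT 1 to WT 3 and 6.73, 5.50 and 5.11 in KO 1 to KO 3 (log2 fold change -0.073, limma adjusted p = 0.893). A value for the whole gene does not show whether 2 exons were deleted, so Phf6 RNA did not check the labels, and every direction given here is of libraries labelled KO against libraries labelled WT. The study assayed Phf6 mRNA and protein separately in leukemia cells of both genotypes. T-cell markers were present in all libraries, with a summed FPKM of 8 genes of 838 to 911 in KO and 813 to 1818 in WT libraries, and 1 of the 8 (Cd5) was lower in KO. Markers of other blood cells moved with the labels. The summed FPKM of 11 neutrophil genes was 91.5 to 283 in KO and 6693 to 93870 in WT libraries, and all 11 were lower in KO. That of 8 monocyte and macrophage genes was 13.5 to 15.3 in KO and 303 to 451 in WT libraries, and 4 of the 6 tested were lower. The 8 megakaryocyte and platelet genes summed to 0.430 to 0.829 in KO, where 4 of the 8 were at 0 in each library, and to 5.24 to 61.2 in WT libraries, and of the 2 tested 0 passed by limma, while both had an unadjusted p under 0.05 and were called by voom on the recovered reads. The 8 B-cell genes summed to 1.99 to 2.68 in KO and 14.9 to 1020 in WT libraries, and the 8 erythroid genes to 16.9 to 126 in KO and 137 to 68045 in WT libraries, with WT 2 the highest for both. Of the B-cell genes tested 1 of 5 was lower, and of the erythroid genes 0 of 7 passed by limma, with 3 at an unadjusted p under 0.05 and 0 called by voom. The 8 NK-cell genes summed to 576 to 645 in KO and 467 to 1155 in WT libraries, and 6 of the 7 tested were lower and Gzma was higher. Most of the KO sum was Gzma, at 587, 566 and 615 FPKM in KO 1 to KO 3 against 12.9, 50.8 and 27.9 in WT 1 to WT 3. The part of these cells in the levels below was not tested.

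Of the 9 genes, Dusp4 and Spry1 were higher in KO libraries, Spry2, Rasgrp2, Rasgrp1, Dusp5 and Rasal3 were lower, and Dusp6 and Nras did not pass the test (limma on log2(FPKM + 1), adjusted p under 0.05 over 13393 genes). Among all genes tested, 13.1% were higher, 13.3% were lower and 26.4% passed in either direction. WT and KO libraries did not overlap for any of the 9 genes, against 49.1% of all genes tested. The median log2 fold change was -1.42 over the 9 genes and 0.086 over all genes. Spry1 reached the minimum FPKM of 1 in KO libraries alone and Spry2 in WT libraries alone, so both had to differ once they were tested, and they lend no weight to these counts. The other 7 had an FPKM of at least 1 in all 6 libraries.

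**Figure D1:**
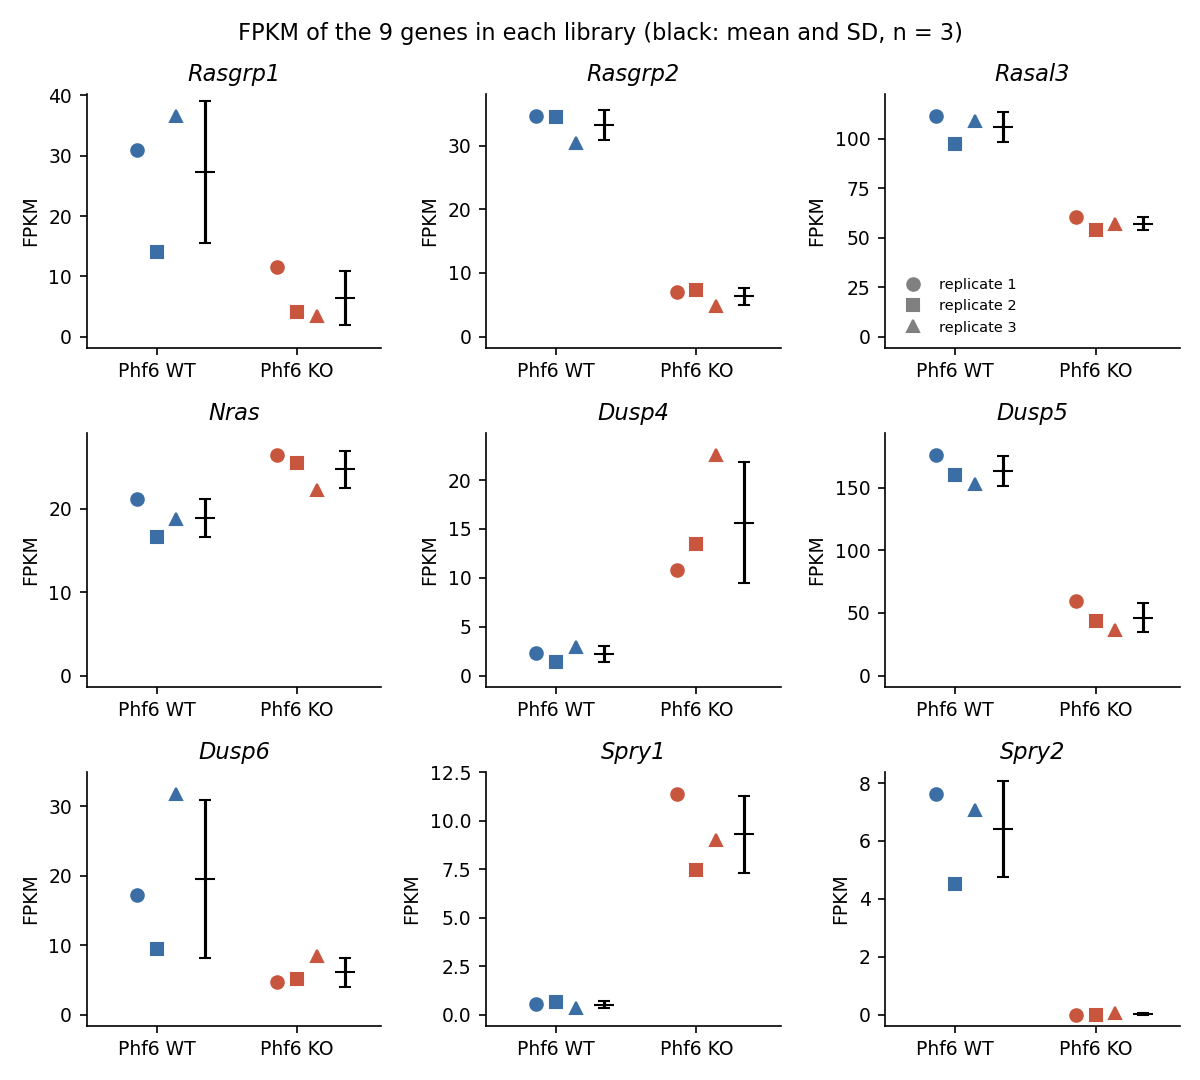
FPKM (vertical axis, from near 0, a different range in each panel) of the 9 genes in the 3 libraries labelled Phf6 WT (blue) and the 3 labelled Phf6 KO (red), with the mean and SD in black; circles, squares and triangles are replicates 1, 2 and 3. The groups are apart in all 9 panels, with KO above WT for Nras, Dusp4 and Spry1, and the WT libraries spread most for Rasgrp1 and Dusp6.

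Rasgrp1 and Rasgrp2, the exchange factors, were both lower in KO libraries. Rasgrp1 (ENSMUSG00000027347, chr2:117279993-117343001, minus strand) is recruited to membranes by diacylglycerol and loads Ras in T cells. Its FPKM was 31.0, 14.1 and 36.6 in WT 1 to WT 3 and 11.5, 4.14 and 3.45 in KO 1 to KO 3. WT 2 was the lowest WT library and lay close to KO 1, the highest of the KO libraries, and the groups did not overlap. The mean fell 4.28-fold, from 27.3 ± 11.7 to 6.37 ± 4.47 (SD, n = 3). The log2 fold change was -2.00 (SE 0.52, limma adjusted p = 0.0334). The call was lost without WT 1 (-1.86, adjusted p = 0.0992), WT 3 (-1.74, 0.0874), KO 2 (-1.82, 0.129) or KO 3 (-1.71, 0.126) and held without WT 2 (-2.40, 0.00689) or KO 1 (-2.46, 0.0286). The adjusted p was 0.0632 with no filter on low values and 0.274 on rescaling to TPM (log2 fold change -1.33). In RNA pooled from many cells, fewer cells of a type and less RNA per cell cannot be told apart.

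Rasgrp2 (ENSMUSG00000032946, chr19:6399340-6415216, plus strand), also called CalDAG-GEFI, responds to calcium, acts mainly on the Ras relative Rap1 and is best known in platelets and neutrophils. Its FPKM was 34.7, 34.5 and 30.5 in the WT and 7.01, 7.25 and 4.80 in the KO libraries. Each group was tight and the gap between them was wide. The mean fell 5.23-fold, from 33.2 ± 2.41 to 6.35 ± 1.35 (SD, n = 3, log2 fold change -2.23, SE 0.24, adjusted p = 0.00142), and the call was lost on rescaling to TPM (-1.53, adjusted p = 0.0619). An antisense transcript, Gm14965, overlaps Rasgrp2 and held 7 reads over the WT and 5 over the KO libraries. Together, Rasgrp1 and Rasgrp2 made up 63.1%, 56.5% and 73.6% of the FPKM summed over 8 Ras exchange factors in WT 1 to WT 3 and 43.1%, 35.7% and 23.9% in KO 1 to KO 3, which did not overlap (exact permutation test, two-sided, p = 0.1, the smallest possible with 3 against 3). The share of Rasgrp1 in the sum of the pair overlapped between the labels, at 29.0% to 54.6% in WT and 36.3% to 62.2% in KO libraries (exact permutation p = 0.8).

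Of the other 6 exchange factors, 3 were tested and 0 passed, and 3 were under the filter. Of all 8 in the list, 5 were tested, 0 were higher and 2, Rasgrp1 and Rasgrp2, were lower, with a median of -0.76. Rasgrp4, a myeloid and mast cell relative, gave -0.76 (SE 0.70, adjusted p = 0.478), and Sos2, which is recruited by receptor adaptors, gave -0.30 (SE 0.48, adjusted p = 0.694). Of those under the filter, which have no test, Rasgrf1, best known in neurons, was at 0, 0.0308 and 0.0117 FPKM in the WT and at 1.05, 0.970 and 1.25 in the KO libraries, without overlap. Rasgrp3, known in B cells, was at 0.527, 1.99 and 0.577 in the WT and at 0.0218, 0 and 0.0126 in the KO libraries, and Rasgrf2 overlapped between the labels. Upstream of Ras, 2 of 9 tested adaptors were lower and 0 were higher, against 13.3% lower and 13.1% higher among all genes tested. These were Plcg2, a phospholipase that makes diacylglycerol in B and myeloid cells (28.2, 36.1 and 7.55 in WT and 0.0999, 0.251 and 0.246 FPKM in KO libraries, log2 fold change -4.13, SE 0.56, adjusted p = 0.00300), and the docking protein Gab2 (-1.92, SE 0.28, adjusted p = 0.00411). Both reached the minimum FPKM in WT libraries alone, so they had to differ once tested. Of the diacylglycerol kinases, which remove the lipid that recruits Rasgrp1, 5 of 9 were tested, and 0 passed by limma in either direction, with 1 at an unadjusted p under 0.05 and 0 called by voom on the recovered reads. That was Dgke, named after its values were seen, at 3.31, 1.58 and 5.78 FPKM in the WT and 8.46, 7.35 and 9.98 in the KO libraries (1.17, SE 0.39, adjusted p = 0.0700). The 2 most abundant had log2 fold changes of -0.83 (Dgka, SE 0.37, adjusted p = 0.151) and -0.21 (Dgkz, SE 0.24, adjusted p = 0.565).

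Rasal3 (ENSMUSG00000052142, chr17:32390659-32403583, minus strand), a GAP of blood cells that turns Ras off, had an FPKM of 112, 97.5 and 109 in the WT and 60.6, 53.9 and 57.0 in the KO libraries. Both groups were tight and did not overlap. The mean was 106 ± 7.58 in WT and 57.2 ± 3.32 in KO libraries (SD, n = 3), a 1.86-fold difference (log2 fold change -0.88, SE 0.24, adjusted p = 0.0373). The call was lost under 8 of 18 alternatives, among them leaving out any library but WT 2 (adjusted p = 0.0905 to 0.170), quantile normalization (-0.34, adjusted p = 0.469) and rescaling to TPM (-0.051, adjusted p = 0.940), where the median of all genes moved to 0.86. Relative to that median Rasal3 was at -0.97 as reported and at -0.91 after rescaling to TPM. Its share of the FPKM of 10 Ras GAPs overlapped between the labels, at 50.6% to 69.7% in WT and 49.4% to 51.3% in KO libraries (exact permutation p = 0.3). Among the 8 GAPs tested, 1 was higher and 2 were lower, with a median of 0.27. The shares over all genes tested were 13.1% higher and 13.3% lower. Rasal1, a calcium-responsive GAP, was higher (0.421, 2.52 and 0.620 in WT and 11.7, 9.92 and 12.6 FPKM in KO libraries, log2 fold change 2.62, SE 0.39, adjusted p = 0.00429), and Rasa4, also calcium-responsive, was lower (-1.50, SE 0.34, adjusted p = 0.0202), having reached the minimum FPKM in WT libraries alone.

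Nras (ENSMUSG00000027852, chr3:103058285-103067914, plus strand), a Ras GTPase often mutated in leukemia, was measured at FPKM values of 21.2, 16.6 and 18.8 in the WT and 26.5, 25.5 and 22.3 in the KO libraries. Every KO library was above every WT library, by a small margin between KO 3 and WT 1. The mean was 18.9 ± 2.29 in WT and 24.8 ± 2.20 in KO libraries (SD, n = 3), and the log2 fold change of 0.38 (95% interval -0.15 to 0.91, SE 0.22) did not pass the test (adjusted p = 0.268, and 0.110 to 0.512 over 18 alternatives). Of 5 Ras GTPases tested, 1 was higher and 1 was lower, with a median of -0.079. The shares over all genes tested were 13.1% higher and 13.3% lower. Rras2, also called TC21, was higher (21.9, 20.9 and 26.1 in WT and 57.5, 67.4 and 60.4 FPKM in KO libraries, log2 fold change 1.39, SE 0.23, adjusted p = 0.00599), and Rras, which reached the minimum FPKM in WT libraries alone, was lower (-2.61, SE 0.51, adjusted p = 0.0116).

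**Figure D2:**
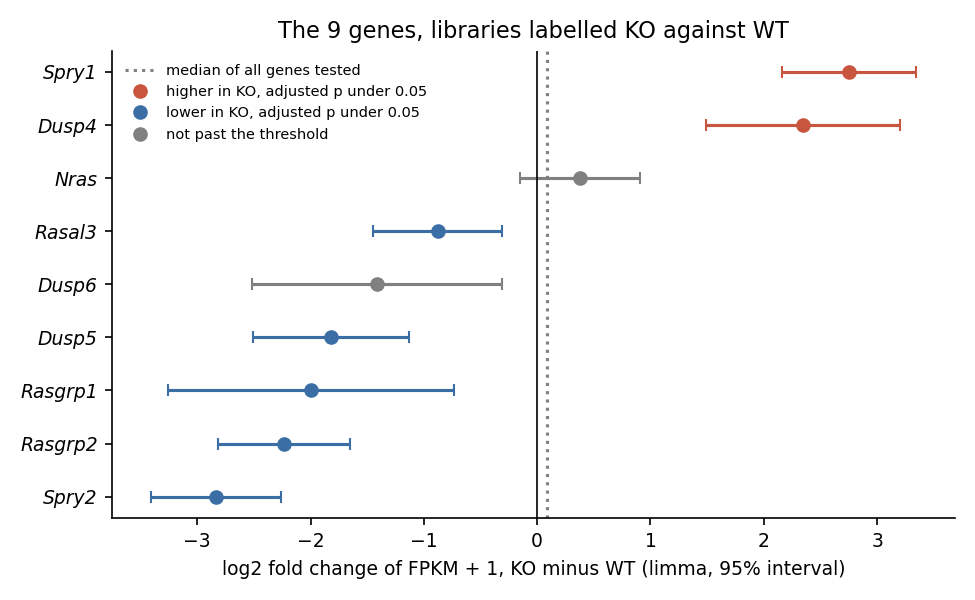
Log2 fold change of FPKM + 1 (horizontal axis, KO minus WT) of the 9 genes with the 95% interval from limma, 3 against 3 libraries; the dotted line is the median of all 13393 genes tested. Spry1 and Dusp4 lie above 0, Nras spans 0, and Dusp6 is the gene whose interval excludes 0 without an adjusted p under the threshold.

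The 3 ERK phosphatases took different courses. Dusp4 (ENSMUSG00000031530, chr8:34807297-34819894, plus strand), a nuclear phosphatase of ERK and other MAP kinases, had an FPKM of 2.27, 1.37 and 2.97 in the WT and 10.8, 13.4 and 22.6 in the KO libraries. KO 3 was the highest, and even KO 1 was well above every WT library. The mean rose 7.10-fold, from 2.20 ± 0.803 to 15.6 ± 6.18 (SD, n = 3). The difference was 2.35 on the log2 scale (SE 0.36, adjusted p = 0.00462), and it passed the test under all 18 alternatives (adjusted p up to 0.0261).

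Dusp5 (ENSMUSG00000034765, chr19:53529109-53542431, plus strand), the nuclear ERK phosphatase whose promoter holds the CArG boxes printed above, was the most abundant of the 9 genes in WT libraries by FPKM. Its values were 176, 160 and 153 in WT 1 to WT 3 and 59.2, 43.4 and 36.4 in KO 1 to KO 3. The groups were far apart, and the lowest WT library was above the highest KO library by more than the spread within either. The mean fell 3.52-fold, from 163 ± 12.0 to 46.3 ± 11.7 (SD, n = 3). The difference was -1.82 on the log2 scale (SE 0.29, adjusted p = 0.00529). The call was lost with quantile normalization (-1.25, adjusted p = 0.0506) and on rescaling to TPM (-0.999, adjusted p = 0.172).

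Dusp6 (ENSMUSG00000019960, chr10:99263231-99267489, plus strand), the cytoplasmic ERK phosphatase, had an FPKM of 17.2, 9.51 and 31.8 in the WT and 4.63, 5.19 and 8.49 in the KO libraries. WT 2 and KO 3 nearly met, and the WT libraries varied 3.35-fold. The mean was 19.5 ± 11.3 in WT and 6.10 ± 2.09 in KO libraries (SD, n = 3), and the log2 fold change of -1.42 (95% interval -2.52 to -0.31, SE 0.46) did not pass the test (adjusted p = 0.0667). It passed without WT 2 (-1.82, adjusted p = 0.00626) and with array weights, which gave WT 2 little weight (-1.51, adjusted p = 0.00107).

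Within a library, Dusp4 took a larger share of the 3 phosphatases in KO than in WT libraries. It made up 1.16%, 0.800% and 1.58% of the FPKM summed over Dusp4, Dusp5 and Dusp6 in WT 1 to WT 3, and 14.5%, 21.6% and 33.5% in KO 1 to KO 3 (exact permutation p = 0.1, the smallest possible). The sum itself was 196, 171 and 188 in WT and 74.6, 62.0 and 67.5 FPKM in KO libraries, so the KO libraries had the lower total and the larger share of Dusp4. The share of Dusp6 overlapped between the labels, at 5.57% to 16.9% in WT and 6.20% to 12.6% in KO libraries (exact permutation p = 0.8). Shares of summed FPKM do not depend on the size by which a library was divided.

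**Figure D3:**
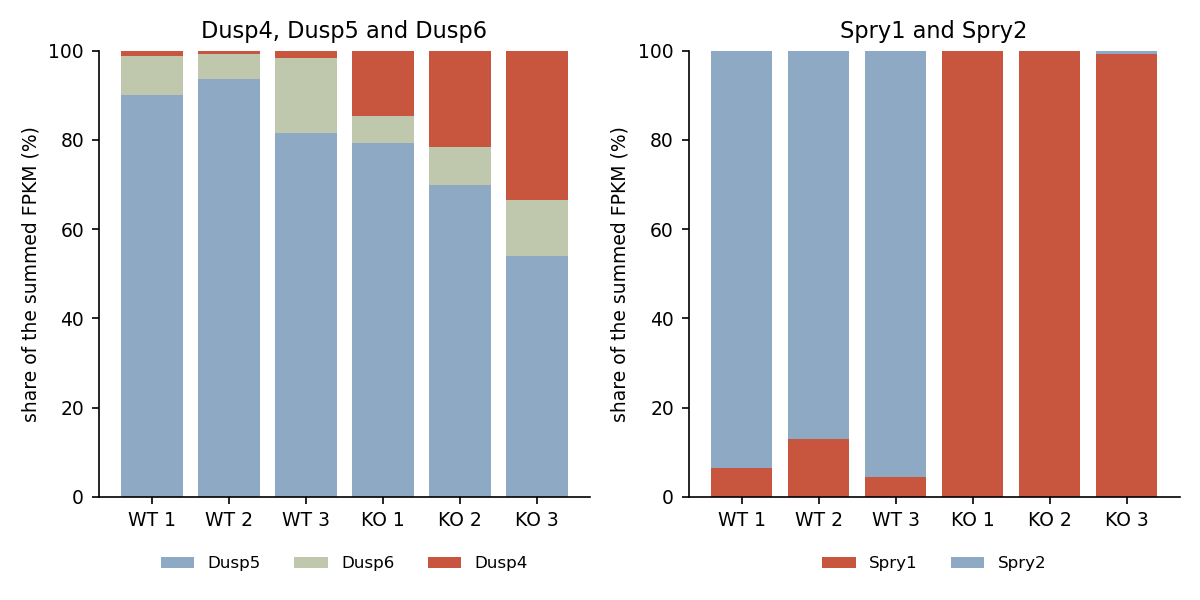
Shares (vertical axis, percent of the summed FPKM in each library) of Dusp4, Dusp5 and Dusp6 on the left and of Spry1 and Spry2 on the right, in 3 WT and 3 KO libraries. Dusp5 is the largest part of its bar in all 6 libraries, Dusp4 grows from at most 1.58% in WT to at least 14.5% in KO libraries, and Spry1 takes at least 99.3% of its bar in KO libraries.

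Of the 10 MAP kinase phosphatases in the list, 7 were tested, of which 1 (Dusp4) was higher and 3 were lower, with a median of -1.42. The shares over all genes tested were 13.1% higher and 13.3% lower. Dusp1, an immediate-early phosphatase of p38, JNK and ERK, was at 220, 143 and 201 FPKM in the WT and at 1.93, 2.002 and 2.40 in the KO libraries (log2 fold change -5.91, SE 0.25, adjusted p = 0.000233). Dusp2, a nuclear phosphatase induced in activated lymphocytes, was at 81.2, 100.6 and 78.3 in the WT and at 20.8, 22.4 and 20.7 in the KO libraries (-1.97, SE 0.23, adjusted p = 0.00186). Summed over all 10, the phosphatases had an FPKM of 506 ± 49.9 in WT and 147 ± 13.2 in KO libraries (SD, n = 3), without overlap. The labels were also apart for 49.1% of all single genes tested.

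The Sprouty genes moved in opposite directions. Spry1 (ENSMUSG00000037211, chr3:37639947-37644598, plus strand) reached FPKM values of 0.535, 0.673 and 0.333 in the WT and 11.4, 7.47 and 8.999 in the KO libraries, from 24, 23 and 15 reads against 617, 342 and 421. It was low but present in every WT library. The log2 fold change was 2.75 (SE 0.25, adjusted p = 0.000742). Relative to the library sizes used for FPKM, not the recovered totals, the ratio of reads, KO over WT, was 18.8 (exact 95% interval 14.6 to 24.7, counting error only). An antisense transcript, Gm42922, overlaps Spry1 and held 0 reads over the WT and 20 over the KO libraries, and since the use of strand is not stated the 2 genes could share reads.

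Spry2 (ENSMUSG00000022114, chr14:105891947-105896819, minus strand) went the other way. Its FPKM was 7.64, 4.52 and 7.08 in the WT libraries, from 246, 111 and 229 reads. Of the KO libraries, KO 1 and KO 2 held 0 reads and KO 3 held 2 reads, where 3 reads would have given an FPKM of 0.0772 to 0.0913. The log2 fold change was -2.84 (SE 0.24, adjusted p = 0.000600), a value that depends on the pseudocount. Relative to the library sizes used for FPKM, not the recovered totals, the ratio of reads, WT over KO, was 346 (exact 95% interval 95.5 to 2867, counting error only). Spry2 is not a listed marker of any blood cell, and its source among the cells of the WT libraries was not tested.

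Spry1 made up 6.55%, 13.0% and 4.49% of the summed FPKM of Spry1 and Spry2 in WT 1 to WT 3 and 100%, 100% and 99.3% in KO 1 to KO 3. The sum of the pair overlapped between the labels, at 5.20 to 8.17 in WT and 7.47 to 11.4 FPKM in KO libraries (exact permutation p = 0.2). In the list of 7 Sprouty and Spred genes, 4 were tested, 1 was higher and 2 were lower, with a median of -0.28. These 3 (Spry1, Spry2 and Spred1) reached the minimum FPKM in libraries of 1 label alone and had to differ once tested, so the count is a description. Spred1, an inhibitor that brings the GAP neurofibromin to Ras, was at 1.79, 1.08 and 1.702 FPKM in the WT and at 0.0237, 0.0281 and 0.0366 in the KO libraries (log2 fold change -1.28, SE 0.18, adjusted p = 0.00346). Spred2 gave 0.72 (SE 0.52, adjusted p = 0.370). Spred3 was under the filter, at 0.115, 0.219 and 0.135 in the WT and 1.16, 1.24 and 0.979 FPKM in the KO libraries.

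Downstream of Ras, 1 of the tested kinases and most of the tested ERK targets were lower in KO libraries. Of 9 RAF, MEK and ERK kinases and scaffolds tested, 0 were higher and 1 was lower, with a median of -0.49. That was Mapk3, which encodes ERK1 (46.1, 58.6 and 18.0 in WT and 9.97, 8.98 and 10.3 FPKM in KO libraries, log2 fold change -1.81, SE 0.44, adjusted p = 0.0262). Map2k2, a MEK, gave -1.11 (SE 0.58, adjusted p = 0.220). Of 16 ERK target genes 10 were tested, 0 were higher and 7 were lower, with a median of -1.94 against 0.086 for all genes. Among all genes tested, 13.1% were higher and 13.3% were lower. The 3 tested targets that did not pass had log2 fold changes above 0, opposite to the 7. Of the 7, Egr3 and Ier3 reached the minimum FPKM in WT libraries alone and had to differ once tested, and 5 of the other 8 tested were lower. Fos, an AP-1 subunit, was at 245, 196 and 372 FPKM in the WT and at 12.8, 8.13 and 7.29 in the KO libraries (-4.69, SE 0.35, adjusted p = 0.000415). Egr1, an immediate-early zinc finger factor, was at 35.8, 18.7 and 36.5 in the WT and at 1.90, 0.411 and 0.845 in the KO libraries (-3.94, SE 0.40, adjusted p = 0.00110). Ier2 (-3.88, SE 0.56, adjusted p = 0.00383) and Egr3 (-1.93, SE 0.29, adjusted p = 0.00447) were lower too. ERK phosphorylation was not measured in these files.

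Rap1, the main substrate of Rasgrp2, was represented by 9 tested genes, of which 2 were higher and 2 were lower, with a median of -0.14. Sipa1, a Rap1 GAP of lymphoid and myeloid cells, was at 91.5, 115 and 81.1 FPKM in the WT and at 20.9, 16.6 and 21.3 in the KO libraries (-2.22, SE 0.26, adjusted p = 0.00173). Rap1b, the more abundant Rap1 transcript of platelets, was lower (-1.45, SE 0.36, adjusted p = 0.0276) and lost its call under 9 of 18 alternatives, as did Mapk3 under 6 and Rasa4 under 4. The Rap1 exchange factor Rapgef2 was higher, at 6.07, 0.920 and 7.53 in the WT and 42.5, 46.7 and 54.6 FPKM in the KO libraries (3.32, SE 0.57, adjusted p = 0.00738), as was the Rap GAP Sipa1l1 (1.81, SE 0.31, adjusted p = 0.00756). Over all 87 pathway genes outside the 9, 62 were tested, 4 were higher, 17 were lower and 41 did not pass, with a median of -0.29. Of the 17, 7 reached the minimum FPKM in WT libraries alone, and 10 of the other 55 tested were lower. Over all genes tested, 13.1% were higher and 13.3% were lower. Without WT 2, 10 of the pathway genes were higher and 29 were lower, and of all 13393 genes tested 3584 were higher and 3383 were lower.

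**Figure D4:**
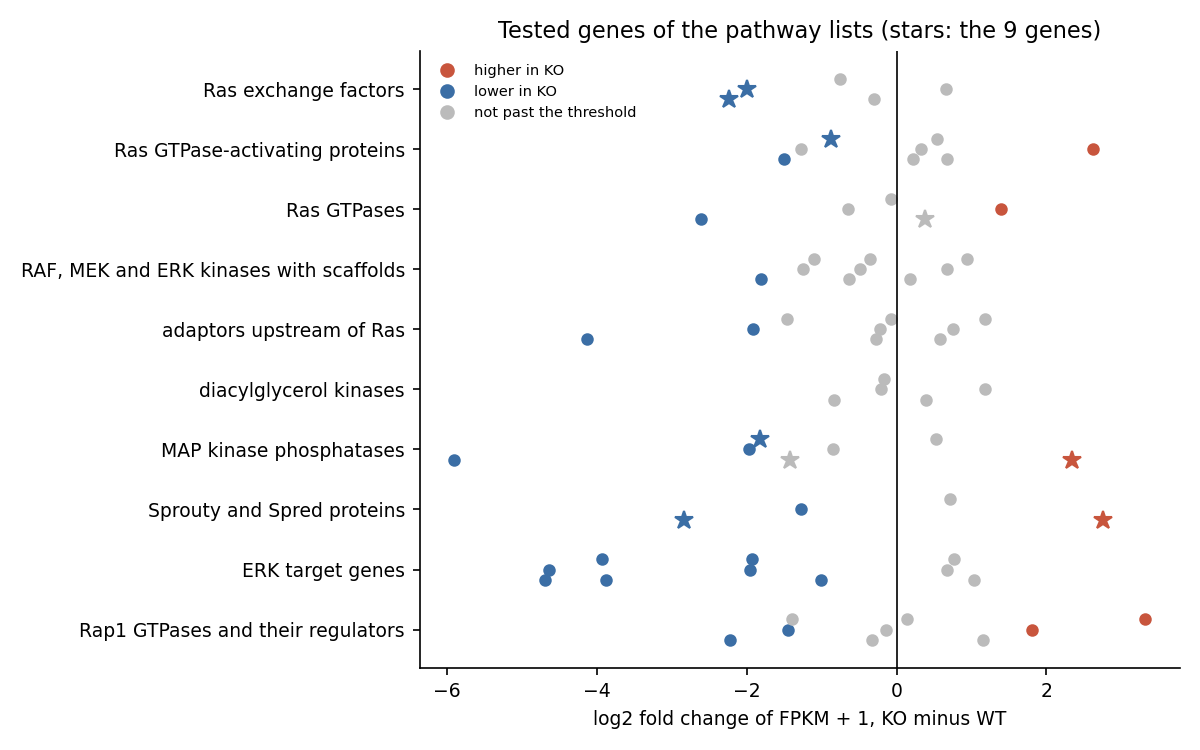
Log2 fold change of FPKM + 1 (horizontal axis, KO minus WT) of each tested gene in 10 pathway lists (rows), with the 9 genes as stars and the others as circles; red is higher and blue lower in KO libraries at an adjusted p under 0.05, and grey did not pass. The ERK target row has 7 blue points and 0 red ones, and stars of both colours stand in the phosphatase and Sprouty rows.

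The pathway genes with patterns most like each of the 9 were found by the root mean square difference of log2(FPKM + 1) values over the 6 libraries, each centred on its own mean. Closest to Rasgrp1 were Rapgef6 (0.56) and Gab3 (0.59), and closest to Rasgrp2 were Dusp2 (0.22) and Sipa1 (0.27). Rasal3 was nearest to Dusp7 (0.17) and Mcl1 (0.20), and Nras to Nf1 (0.22) and Lamtor3 (0.24). Dusp4 was nearest to Sipa1l1 (0.55) and Rras2 (0.58), Dusp5 to Dusp2 (0.26) and Gab2 (0.31), and Dusp6 to Gab3 (0.19) and Rasa3 (0.23). Gab3 was shared by Rasgrp1 and Dusp6. WT 2 was the lowest WT library for both, as it was for Rasal3, Nras, Dusp4 and Spry2. Spry1 was nearest to Rasal1 (0.38) and Sipa1l1 (0.54), and Spry2 to Sipa1 (0.47) and Dusp2 (0.54). Dusp2 and Sipa1 thus recurred beside Rasgrp2 and Spry2.

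**Figure D5:**
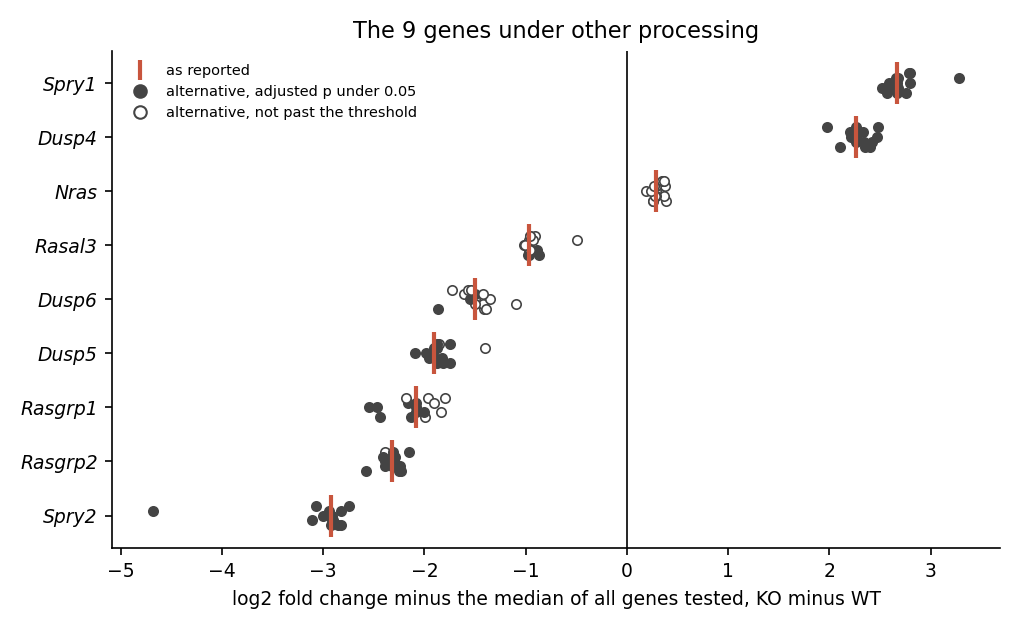
Log2 fold change minus the median of all genes tested (horizontal axis, KO minus WT) of the 9 genes as reported (red bars) and under the alternatives on the same scale (circles, filled where the adjusted p is under 0.05); the fits with other pseudocounts and on recovered reads, whose scale differs, are left out. No gene crosses 0, and open circles appear for Rasal3, Rasgrp1, Rasgrp2 and Dusp5, which passed as reported.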

How the data were processed

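RNA-seq of BM covered 3 WT-labelled and 3 KO-labelled libraries. The genotype labels spell the gene with a final digit that changes from sample to sample, and were read as Phf6. Whether replicates are separate mice is not stated, so p-values measure the spread between these samples. The processing notes name HISAT2 2.0.5 and featureCounts 1.5.0-p3 with GRCm38. The authors deposited FPKM, divided by gene length and a library size that was 0.645 to 1.21 times the recovered reads. FPKM times length was a whole multiple of 1 read (tolerance 0.05) in 100% of values.

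The 9 genes, the pathway and marker lists and the tests were chosen with earlier results of these data known. The study used a count model, but the unit here is FPKM, so log2(FPKM + 1), which understates changes of low genes, was tested with limma 3.58.1 (trend, two-sided) in R 4.3.3 for the 13393 genes with FPKM of at least 1 in at least 3 libraries, with Benjamini-Hochberg adjustment over all of them. Shares were compared by exact permutation tests. The model was tested on simulated data. Besides the 9 genes and Phf6, the text names up to 4 genes per list with the smallest p-values past the threshold, the 2 most abundant where fewer than 2 pass, and the 2 nearest in pattern to each of the 9. Results for 2 genes under this rule or beside it are not reported here. Dgke, Rasgrf1, Rasgrf2, Rasgrp3, Ier3 and the markers Cd5 and Gzma were named after their values were seen. Summaries used SciPy 1.17.1, pandas 2.3.3 and NumPy 2.4.6, and plots Matplotlib 3.10.9, under Python 3.11.15.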

Additional observations from a re-analysis of the deposited data

How the results depend on the processing

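All 9 genes kept their direction under the 18 alternatives (17 for Spry1 and Spry2, which fall under the filter of mean FPKM of at least 5, so that 1 gene was higher there). Dusp4, Spry1 and Spry2 passed the test in each alternative in which they were tested, Rasgrp2 in all but rescaling to TPM (-1.53, adjusted p = 0.0619). The number of the 9 lower in KO libraries was 5 as reported, 3 with quantile normalization, 1 after rescaling to TPM and 3 to 6 when a library was left out, with 6 without WT 2. Of the pathway genes outside the 9, 4 were higher as reported, 7 with quantile normalization, 7 after rescaling to TPM, 11 with array weights and 4 to 10 when a library was left out. Lower were 17 as reported, 10 with mean FPKM of at least 5, 32 with array weights and 10 to 29 when a library was left out. Over all genes, 3539 passed as reported, 8461 with array weights, 1837 with mean FPKM of at least 5, 6967 without WT 2 and 1934 to 2071 without a KO library. Of all calls 49.6% were higher as reported and 67.8% after rescaling to TPM, where the median of all genes moved by 0.77. Log2 fold changes that turned were those of Dgkz (0.17 with quantile normalization, 0.62 after rescaling to TPM), Rasgrp4 (0.032) and Sos2 (0.46) after rescaling to TPM, Sos2 when a library was left out (-0.83 to 0.012), and Phf6 (0.69 after rescaling to TPM, -0.37 to 0.10 when a library was left out), none of which passed the test as reported. The cause was not tested.

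With the replicate number as a block, 2676 of all genes passed, Rasal3 (adjusted p = 0.138) and Rap1b lost the call and Dusp6 gained it (adjusted p = 0.0475). Deviations of same-numbered libraries from their group means correlated at 0.095, 0.10 and -0.15, and those of differently numbered libraries at -0.20 to 0.23. With 3 libraries per label these correlations cannot decide whether the numbers pair the samples. With 3 libraries per label, exact permutation p-values stop at 0.1.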
